A study of Mus musculus with 2 samples.

Results

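HDAC4 is a class IIa histone deacetylase that is brought to chromatin by transcription factors and represses or modulates transcription there. ChIP-seq for HDAC4 was carried out in C2C12 cells, an immortalized myoblast line of C3H mouse origin that proliferates in serum-rich medium and fuses into myotubes when serum is withdrawn. Cells at passages 30 to 32 were kept for 24 h in growth medium with 20% fetal bovine serum, were fixed with 1% formaldehyde, and gave 1 library precipitated with 7.5 μg of anti-HDAC4 antibody and 1 library of input chromatin, which is sheared DNA taken without antibody. No cells with altered HDAC4 and no IgG library were analysed here, so the comparison was between HDAC4 ChIP and input in the same unmodified line. A peak list holds no expression values, and the myoblast identity of the cells could therefore not be checked against marker genes. The genes described are Upf1, Txnl4a, Safb, Safb2, Ctu1 and Eef1a1, 6 genes with roles in RNA processing or translation, which the annotation of the authors placed at 5 of the 229 HDAC4 peaks. They were chosen by having a peak in this list, so the presence of a peak and its enrichment over input are given as a description, with no test.

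The genes act at successive steps between transcription and protein. Txnl4a encodes a small thioredoxin-like protein of the U5 small nuclear ribonucleoprotein, a building block of the spliceosome, and Safb and Safb2 encode scaffold attachment factors, nuclear proteins that bind both DNA and RNA and take part in transcription and splicing. Upf1 encodes the RNA helicase at the centre of nonsense-mediated decay, the pathway that removes mRNAs with a premature stop codon. Ctu1 encodes a subunit of the cytosolic thiouridylase, which adds sulphur to the wobble uridine of certain tRNAs, and Eef1a1 encodes the elongation factor that delivers aminoacyl-tRNA to the ribosome and is among the most abundant proteins of growing cells.

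The DNA under 4 of the 5 peaks is shown because the peaks differed in where they sat: before a start site, between a pair of divergent genes, inside a coding exon and inside an intron. Sequences were read from the RefSeq copy of GRCm38 (mm10), 5′ to 3′ on the strand of the gene, or on the plus strand for Safb and Safb2. Capitals mark matches on either strand to GGGCGG (GC box), GCGCANGCG (a widened NRF1 word) or AANATGGC (a widened YY1 word). The Upf1 stretch is chr8:70353424-70353520 on the minus strand, 97 bp at the outer end of the peak, before every annotated Upf1 exon. It does not include the Upf1 summit, which lies further towards the gene, within a predicted RefSeq exon that is not shown. The Safb and Safb2 stretch is chr17:56584676-56584824, 149 bp between the exons of the pair, with the summit at base 131. The Ctu1 stretch is chr7:43675335-43675535, the summit and 100 bp on each side of it inside exon 2, all of it coding. The Eef1a1 stretch is chr9:78480842-78481091 on the minus strand, 250 bp of intron 1 with the summit at base 231.
Upf1 upstream: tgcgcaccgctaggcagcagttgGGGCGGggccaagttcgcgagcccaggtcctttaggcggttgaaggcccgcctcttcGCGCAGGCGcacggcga
Safb-Safb2 between starts: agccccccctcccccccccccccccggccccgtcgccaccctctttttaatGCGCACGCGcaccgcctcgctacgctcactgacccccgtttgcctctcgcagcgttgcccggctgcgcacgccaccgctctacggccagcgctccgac
Ctu1 exon 2: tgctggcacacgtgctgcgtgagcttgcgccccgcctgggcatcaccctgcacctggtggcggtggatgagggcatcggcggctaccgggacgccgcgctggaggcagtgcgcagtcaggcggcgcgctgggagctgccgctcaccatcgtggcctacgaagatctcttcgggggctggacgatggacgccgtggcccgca
Eef1a1 intron 1: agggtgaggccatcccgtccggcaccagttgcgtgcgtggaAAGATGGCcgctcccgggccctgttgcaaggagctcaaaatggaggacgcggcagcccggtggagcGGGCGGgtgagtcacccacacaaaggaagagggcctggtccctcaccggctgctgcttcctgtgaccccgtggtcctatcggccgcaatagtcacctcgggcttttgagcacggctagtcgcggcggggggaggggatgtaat

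CpG dinucleotides were present in all 4 stretches. Their number over that expected from base composition was 1.01 at Upf1, 1.18 at Safb and Safb2, 0.912 at Ctu1 and 0.755 at Eef1a1. The median over whole peaks of the comparison set defined below was 0.859. The Ctu1 exon held 23 CpG, although it is coding sequence more than 3 kb from an annotated start, and the Eef1a1 intron held 20 CpG in 250 bp. The Upf1 stretch carried 1 GC box and 1 widened NRF1 word, and the Safb and Safb2 stretch carried 1 widened NRF1 word. The Eef1a1 stretch carried 1 GC box and 1 widened YY1 word. The Ctu1 stretch carried no match to any word shown in capitals.

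For each peak the table gives the pileup, which is the number of ChIP tags that overlap the summit once each tag is extended to the fragment length of 297 bp. Fold is the ratio of pileup plus 1 to the scaled local input plus 1. The local input is the highest of the input density in a fragment-length window, in 1 kb, in 10 kb and over the genome, and it could be recovered from the fold and the pileup as a number of input tags. The ChIP library kept 1920168 of 10903000 tags after removal of tags at the same position (17.6%), and the input kept 17798166 of 19038793 (93.5%), so input tags were multiplied by 0.108 before the comparison. Intervals are exact 95% Poisson intervals of the pileup, and those of the fold were carried over from the pileup with the input held fixed. They cover counting error only, since each library was made once. The comparison set was the 188 peaks on chromosomes 1 to 19 and X without very high pileup. The 40 peaks of the list above 5 times the median pileup of 11 tags were left out of that set, and all 5 peaks described here belong to it.

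The 5 peaks spanned a range of enrichment from the upper end of the list to near its middle. At Txnl4a, 23 ChIP tags stood over the summit against 6 input tags in the same window, for a fold of 14.6 (95% interval 9.46 to 21.6) and a −log10 q of 23.4. This was the second largest fold of the list (rank 2 of 229), between the peaks at Ubr4 (14.8) and at Polh and Xpo5 (14.0). At Upf1, 16 ChIP tags stood against an input equal to 5.05 tags per fragment window, for a fold of 11.0 (6.57 to 17.5), a −log10 q of 14.2 and rank 7. The Safb and Safb2 peak had 15 ChIP tags against 5.94 input tags, a fold of 9.75 (5.73 to 15.7), a −log10 q of 11.7 and rank 11. The peaks of the spliceosome gene, the decay helicase and the scaffold factors thus stood at the top of the 6 genes in both ChIP tags and fold.

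Ctu1 and Eef1a1 had fewer ChIP tags, and the same number. The Ctu1 peak had 10 tags, a fold of 8.43 (4.44 to 14.9), a −log10 q of 8.46 and rank 23, tied with the peak annotated to Edn1. The Eef1a1 peak also had 10 tags, with a fold of 7.15 (3.76 to 12.6), a −log10 q of 5.95 and rank 74, between the peaks at Taf5 and Tspan33. With equal pileups, these folds differed through the input alone, which was 2.83 tags per fragment window at Ctu1 and 5.00 at Eef1a1. The fold interval of every peak overlapped that of each other peak, from 9.46 at the low end for Txnl4a to 12.6 at the high end for Eef1a1. Overlap of intervals does not settle their order, which is given as a description, and no pair of peaks was tested.

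**Figure D1:**
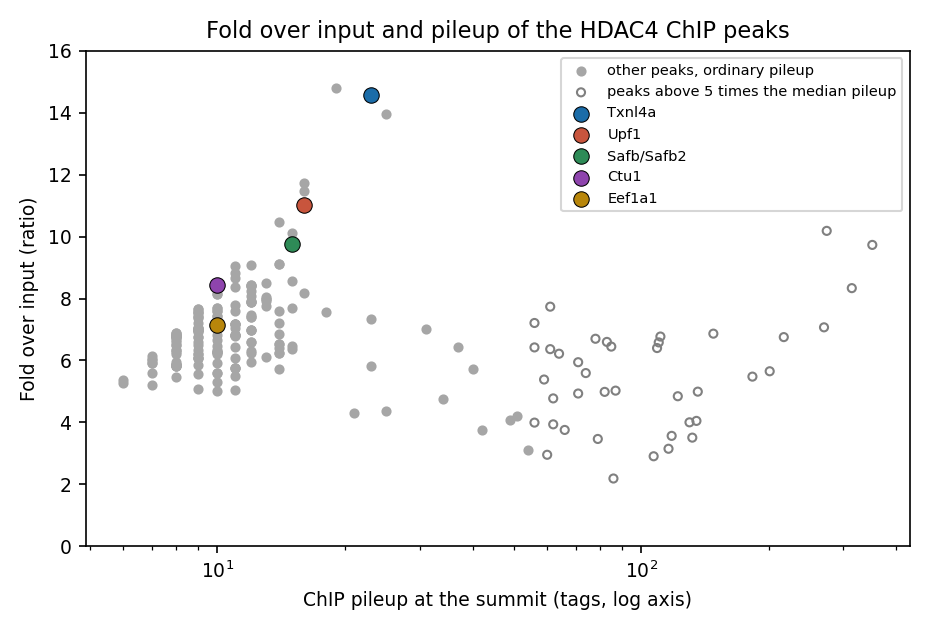
Fold over input against pileup in ChIP tags (log axis) for the peaks of the list, with the 5 peaks of the RNA processing and translation genes named. Txnl4a lies near the top of the plot at a fold of 14.6 and Eef1a1 at 7.15, close to the median of the grey points.

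Among the 188 comparison peaks the median pileup was 10 tags (6 to 54) and the median fold 6.84 (3.10 to 14.8). All 5 peaks were above that median fold, and 3 of 5 were above the median pileup, with Ctu1 and Eef1a1 exactly at it. Within this set Txnl4a ranked 10 by pileup and 2 by −log10 q, Upf1 ranked 16 and 9, and the Safb and Safb2 peak ranked 21 and 14. Ctu1 and Eef1a1 shared rank 91 by pileup with all peaks of 10 tags, 27 peaks in all. In the whole list the 5 peaks ranked 51, 57, 62, 132 and 132 by pileup, since peaks of very high pileup come first there. The rank also turned on how input was entered: without adding 1 to each term, the ratio of ChIP to scaled input was 32.8 at Ctu1 (rank 6 of 229), 29.4 at Upf1 (rank 13) and 23.4 at Safb and Safb2 (rank 38). Ctu1 thus moved above Upf1 and the Safb and Safb2 peak by that ratio, while Txnl4a at 35.5 stayed ahead of both and Eef1a1 at 18.5 stayed last of the 5.

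**Figure D2:**
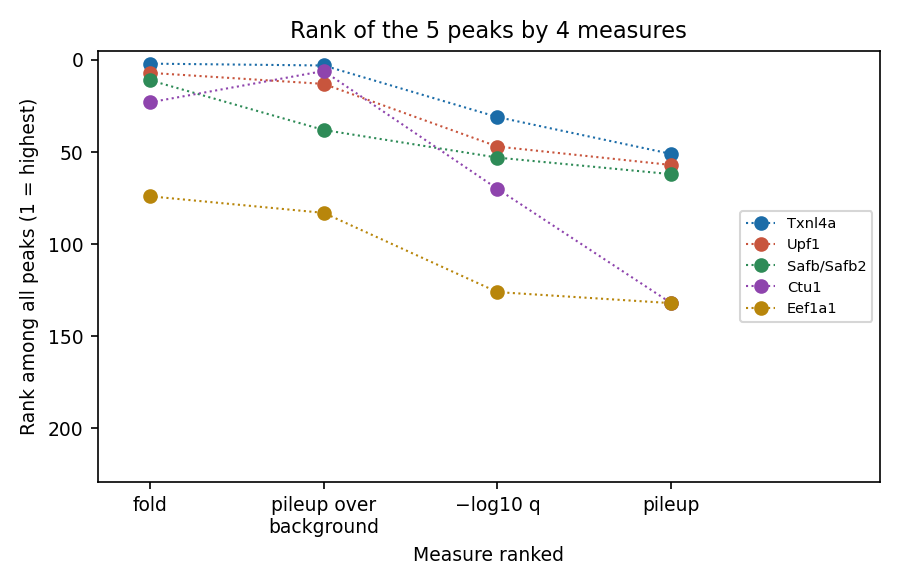
Rank of the 5 peaks among all 229 (rank 1 at the top) by fold, the plain ratio of pileup to scaled background, −log10 q and pileup. Every peak ranked higher by fold than by pileup, and Ctu1 ranged from rank 6 by the plain ratio to rank 132 by pileup.

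The input under the 5 peaks was ordinary for the list, apart from Ctu1, where it was at its lowest possible value. The input background, put back to the scale of the deposited input library, was 2.83 to 6 tags per fragment window, against a genome average of 2.83 and a median of 5.52 over the comparison peaks, with Txnl4a and the Safb and Safb2 peak above that median and the other 3 below it. At Txnl4a (6 tags) and Eef1a1 (5 tags) the value was a whole number in the window of 1 fragment length, so the input right at the summit set it. At Upf1 the value equalled 17 input tags in 1 kb or, with the same result, 170 in 10 kb, and at Safb and Safb2 it equalled 20 in 1 kb or 200 in 10 kb. At Ctu1 the genome average itself was used, which leaves at most 2 input tags in the fragment window, 9 in 1 kb and 95 in 10 kb. Only 8 of the 188 comparison peaks had their background at this floor. The scaled input made up 2.81% of the pileup at Txnl4a, 3.40% at Upf1, 4.27% at Safb and Safb2, 3.05% at Ctu1 and 5.39% at Eef1a1.

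**Figure D3:**
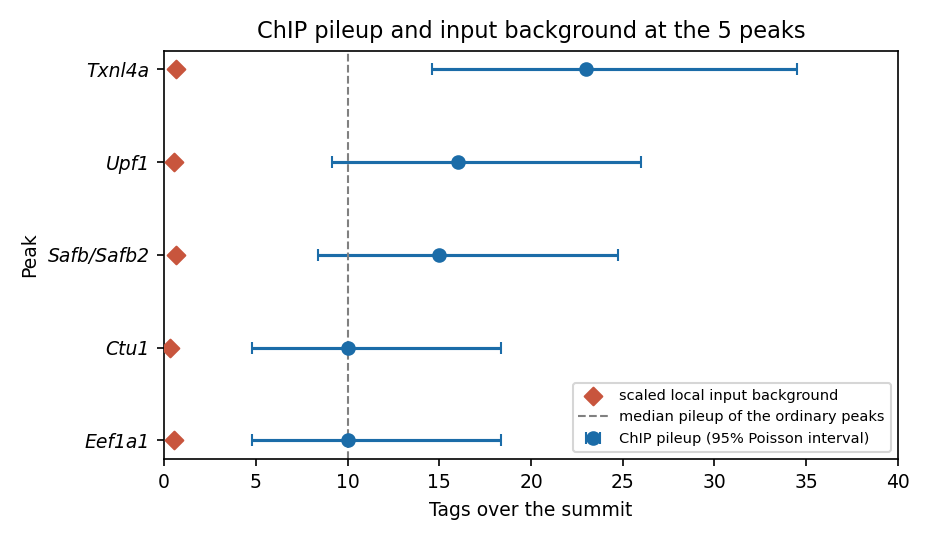
ChIP pileup (circles, with 95% Poisson intervals as bars) and input background scaled to the ChIP library (diamonds), in tags over the summit, at the 5 peaks, with the median pileup of the comparison peaks as a dashed line at 10. The pileup ranges from 10 to 23 tags, while the scaled input lies between 0.305 at Ctu1 and 0.647 at Txnl4a.

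Eef1a1 has processed copies elsewhere in the mouse genome, and reads from repeated sequence can pile up at the wrong place. Every 50 bp word of the Eef1a1 peak, 372 in all, occurred once in the chromosomes and mitochondrial genome of the assembly. So did every word of the peaks at Txnl4a (421), Upf1 (389), Safb and Safb2 (373) and Ctu1 (387). Only 18 of the 421 bp of the Eef1a1 peak were in exons of the full-length transcript. Processed copies lack introns, so the word count says little about them. The 50 bp length is the tag size of the libraries. None of the 5 peaks therefore contained a stretch of tag length with an exact second copy in the chromosomes or the mitochondrial genome. The other sequences of the assembly were not searched.

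The peaks of 5 of the 6 genes had their summit within 1 kb of a protein-coding start site. Over all peaks on chromosomes 1 to 19 and X, 72.3% had the summit within 1 kb of a protein-coding start site in GENCODE M21, and 4 of the 5 peaks described here did, so a promoter position was common to the list and not particular to these genes. Within 100 bp the count was 3 of 5, against 51 of 188 comparison peaks (27.1%), but it depended on the set of start sites: it was 2 of 5 without the transcript Eef1a1-208, and 1 of 5 (Txnl4a) with RefSeq gene starts, against 28 of 188 comparison peaks (14.9%). Of the summits within 1 kb of a start, 4 of 4 were upstream of it, against 49 of 142 comparison peaks (34.5%). With RefSeq gene starts these counts were 2 of 4 and 23 of 117 (19.7%), since the summits at Upf1 and Eef1a1 then lay inside the gene, and without Eef1a1-208 the first count was 3 of 4. The authors assigned the peaks of Txnl4a, Upf1 and the Safb pair to the region upstream of the gene, as for 14.0% of the whole list, that of Ctu1 to an exon (21.4%) and that of Eef1a1 to an intron (20.5%).

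The Upf1 peak, chr8:70353083-70353520, spanned the start of its gene. Its summit at 70353283 was 5 bp before the start of the outermost annotated Upf1 transcript, on the minus strand, and 196 of its 438 bp lay in the first exon of that transcript. RefSeq places the start of its curated Upf1 transcripts 4 bp from the summit, but a predicted RefSeq transcript begins further upstream and would put the summit 140 bp inside the gene. The peak was not alone in this stretch of the chromosome. A peak at the 5′ UTR of Sugp2, which encodes a G-patch protein related to splicing factors, lay 118.7 kb away with 18 ChIP tags and a fold of 7.57. A peak upstream of Crtc1, which encodes a CREB coactivator, lay 86.3 kb away on the other side with 12 tags and a fold of 8.42. Of the 188 comparison peaks, 22 had another within 200 kb and 4 had at least 2, as the Upf1 peak did.

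Safb and Safb2 lie head to head on opposite strands and shared a single peak, chr17:56584594-56585015. Its summit at 56584806 was 168 bp before the start of Safb-207, the nearest coding transcript, and 221 bp before that of the nearest Safb2 transcript. A retained-intron transcript, Safb-202, begins 19 bp past the summit. One peak of this width cannot be split between the genes. Start sites on both strands within 1 kb were found at 19 of the 142 comparison peaks near a start (13.4%). The next peaks on the chromosome were 10.4 Mb away, at Polh and Xpo5 with a fold of 14.0, and 30.7 Mb away, at Mcfd2.

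The Txnl4a peak, chr18:80206540-80207009, also served more than 1 annotated gene. The summit at 80206746 was 49 bp before the start of Txnl4a-204 and 19 bp before that of a transcript of Gm16286, an overlapping gene model on the same strand, so the peak cannot be assigned to either gene by position. At 470 bp this was the longest of the 5 peaks. The nearest other peak on the chromosome, at Mospd4, was 33.7 Mb away.

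The Ctu1 peak was the exception to a promoter position. It covered chr7:43675191-43675626, and all 436 bp fell in the coding part of exon 2 of 3 (43675104 to 43675646). The summit at 43675435 was 3419 bp past the start of the only annotated transcript, and no protein-coding start lay within 1 kb. The nearest peaks on the chromosome were 5.59 Mb away, annotated to Uri1, and 23.7 Mb away at Mef2a.

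The Eef1a1 peak, chr9:78480671-78481091, lay inside the gene. Its summit at 78480861 was in intron 1 of the full-length transcript, 863 bp past its start, and 20 bp before the start of a shorter coding transcript, Eef1a1-208. Without Eef1a1-208 the peak would count as intronic with its nearest start upstream. The nearest peaks among the 22 of the chromosome were 19.7 Mb away at Hcn4 and 29.0 Mb away at Cacna2d2.

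**Figure D4:**
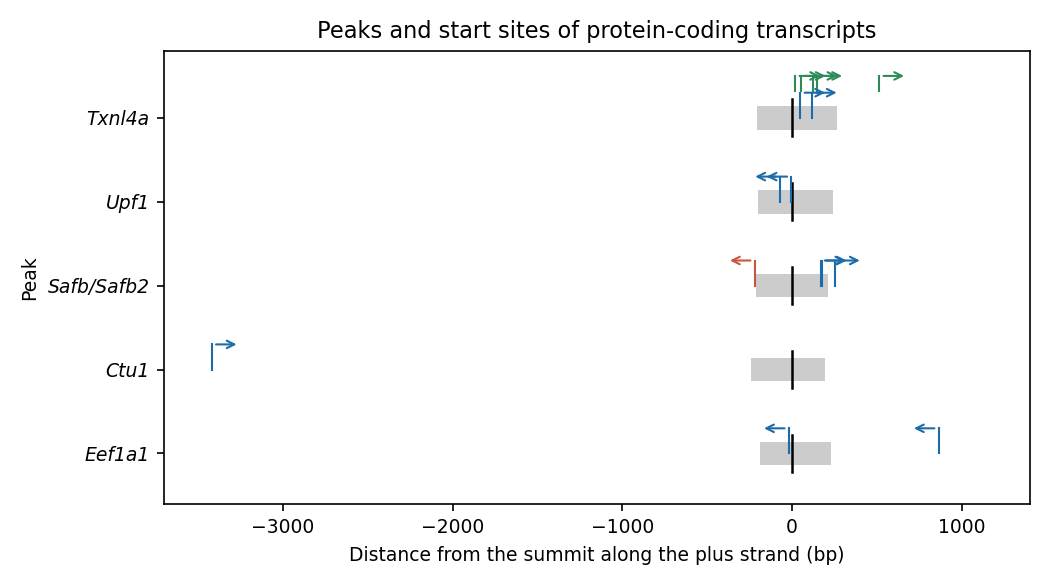
Position of the 5 peaks along the plus strand as distance from the summit in bp, with the peak as a grey bar, the summit as a black line and arrows at starts of protein-coding transcripts (red for Safb2, green for Gm16286, blue for the other genes). Arrows stand within 100 bp of the summit at Txnl4a, Upf1 and Eef1a1, on both sides of the Safb and Safb2 summit, and 3419 bp away from that of Ctu1.

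The peaks were long beside the comparison set and mostly rich in GC. Their lengths were 421 to 470 bp, all above the upper quartile of the comparison peaks (376.5 bp). Of those, 62 of 188 had the shortest length the peak caller reports, 297 bp. In the whole list of 229, where the upper quartile was 470 bp, the 5 peaks ranked 56 to 71 by length. GC content was 75.3% at Upf1, 70.6% at Safb and Safb2, 70.6% at Ctu1, 69.1% at Txnl4a and 58.2% at Eef1a1, beside a median of 69.4% over the comparison peaks. Eef1a1 was thus at the low end of the set, at rank 170 of 188. CpG dinucleotides were more frequent than the base composition predicts at 3 of the 5 peaks, with observed to expected ratios of 1.18 at Upf1 (rank 2 of 188), 1.15 at Safb and Safb2 (rank 5) and 1.02 at Txnl4a (rank 24). The ratios were 0.780 at Ctu1 and 0.746 at Eef1a1, below the median of 0.859. The 3 peaks with the highest CpG ratio were also the 3 with the most ChIP tags. The part of base composition in the pileups was not tested.

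**Figure D5:**
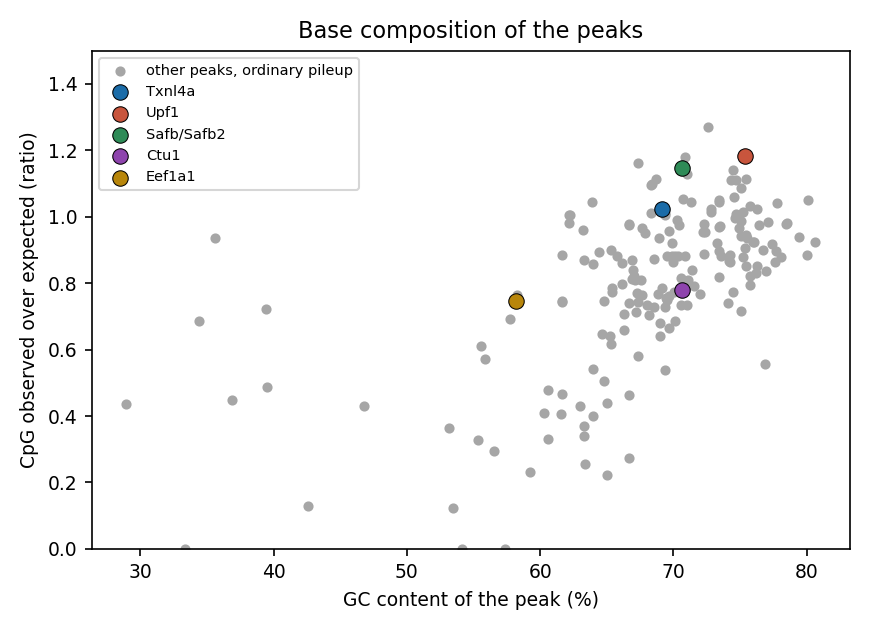
GC content in percent against the observed to expected CpG ratio for the 188 comparison peaks, with the 5 peaks named. Upf1, Safb and Safb2, and Txnl4a stand to the high side of the CpG ratio (1.02 to 1.18), and Eef1a1 has the lowest GC content of the 5 (58.2%).

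Short DNA words known from promoters were counted in a window of 100 bp on each side of each summit, on both strands. The NRF1 core TGCGCATGC, the recognition word of nuclear respiratory factor 1, occurred in 1 of the 5 windows (Txnl4a), in 3.29% of the 213 peaks on chromosomes 1 to 19 and X and in 1.52% of 32851 RefSeq promoters of 300 bp. The wider word GCGCANGCG, which was chosen after the sequences had been seen and overlaps the core in part, occurred in 3 of the 5 windows: 3 times at Txnl4a, 3 times at Upf1 and 2 times at Safb and Safb2. It was present in 15.5% of the 213 peaks and in 6.25% of the promoters. The GC box GGGCGG, the word bound by Sp1-type factors, occurred in the Txnl4a window alone among the 5, against 47.4% of the peaks and 35.7% of the promoters, although the whole peaks of Upf1 and Eef1a1 held 4 and 1. The E-box CANNTG, the word of myogenic bHLH factors, occurred in 3 of the 5 windows, at Upf1, Ctu1 and Eef1a1, against 45.1% of the peaks and 72.3% of the promoters. The windows were shorter than the promoters, so these shares are not over equal lengths.

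The other words were absent from all 5 windows. The MEF2 motif, the site of the best known partner of HDAC4 in muscle, was searched as a pattern of letters like the other words. It was in 1.41% of the peaks and 3.19% of the promoters. CCAAT was in 9.39% of the peaks and 37.4% of the promoters, the ETS word CCGGAAG in 3.76% and 8.86%, the TATA box TATAAA in 1.41% and 13.6%, and the CGCG word CTCGCGAGA in 1.41% and 0.676%. The YY1 word AAGATGGCG was in 0.939% of the peaks and 1.40% of the promoters. Its wider form AANATGGC, also chosen after the sequences had been seen, was in 11.7% and 6.05%. Among the 188 comparison peaks, without those of very high pileup, the share of the wider form was 5.85%. The wider form occurred once in the whole Eef1a1 peak. The cyclic AMP response element TGACGTCA was in none of the 213 peaks and in 1.79% of the promoters. A missing word says only that these letters are not in the window.

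To place the 6 genes among their pathways, 7 lists with 173 genes in all were counted: nonsense-mediated decay and the exon junction complex, the U5 and U4/U6 ribonucleoproteins, scaffold factors with hnRNP and SR proteins, wobble uridine modification of tRNA, translation elongation and termination, translation initiation, and cytosolic aminoacyl-tRNA synthetases. The authors' annotation named 0.748% of all 21924 protein-coding genes (164 genes) at a peak. The lists held 7 named genes, of which 6 are those described here and were picked for it, so nothing is read from that count. Among the other 167 genes of the lists, 1 had a peak (0.599%), near the share of all genes. Upf1 was the only 1 of 19 decay and exon junction genes, Txnl4a of 31 snRNP genes and Ctu1 of 16 wobble uridine genes. Safb and Safb2 were the 2 of 36 in their list. No peak was named for the 35 initiation genes or the 20 synthetase genes. By start sites within 1 kb of a summit, which holds for 0.762% of protein-coding genes, 6 of the 173 genes had a peak, and Ctu1 was the gene lost. Only 1 of these 6 was not picked for its peak, so nothing is read from this count either.

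The further gene with a peak was Eef1d, which encodes a subunit of the exchange factor that recharges the elongation factor made from Eef1a1 with GTP. Its peak, chr15:75909095-75909409, had 15 ChIP tags (8.40 to 24.7), as many as the Safb and Safb2 peak, but an input of 14.0 tags per fragment window. Its fold was 6.37 and its −log10 q 6.24, rank 138 of 229 by fold. The summit at 75909220 was 71 bp past the start of Eef1d-216, in sequence that the authors called intronic. Of the 16 elongation and termination genes, Eef1a1 and Eef1d were thus the 2 with a peak, beside 0.748% of all protein-coding genes. Eef1a1 was picked for its peak, so nothing is read from that count. Both peaks lay within 100 bp of a coding start when Eef1a1-208 is counted, as did 27.1% of the comparison peaks.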

How the data were processed

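C2C12 chromatin was sequenced as 1 HDAC4 ChIP and 1 input library. Tools listed in the submitters' processing notes are CASAVA 1.8.2, Bowtie2, cutadapt and MACS2, and the genome is mm10. Per the file headers the authors called peaks with MACS 2.1.0.20150316 on the single ChIP library against the single input, with a q cutoff of 0.01, a fragment length of 297 bp and at most 1 tag per position. The deposited pileup is a signal in extended ChIP tags, not scaled. The deposited fold is a ratio with 1 added to each term. The deposited −log10 p and −log10 q were written by the authors' peak caller. A second deposited table of the same 229 peaks had damaged values and was used only for its gene symbols.

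The input background was computed as (pileup + 1) / fold − 1 and divided by the scaling factor. A Poisson probability of a count above the pileup returned the deposited −log10 p within 0.000142. A background was assigned to a window when it gave a whole number of input tags within 0.01 tags. Distances used protein-coding transcripts of GENCODE M21 (GRCm38, the same build as mm10), and are negative before the start. Promoters, RefSeq models and sequences came from the RefSeq tables and assembly of GRCm38, and 5 of the 6 genes were matched in the promoter table. Coordinates are 1-based. Python 3.11.15, pandas 2.3.3, scipy 1.17.1 and samtools 1.23.1 were used, and the scripts were tested on simulated data.

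No test was run, because each library was made once and because the genes, the lists and the rule for named genes were chosen with earlier results of these data known. The named genes were the 6 described, any other gene of the lists with a peak, the peaks next in rank by fold, and the nearest peaks on the chromosome. Alternatives covered stricter peak thresholds, other rankings, the input recovered from −log10 p, other start sites, a window of 100 bp on each side of the summit and other list rules. Leaving out Eef1a1-208, the counts of summits near or before a start with other start sites, and the wider words were chosen after seeing the data.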

Additional observations from a re-analysis of the deposited data

How the results depend on the processing

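Of 68 alternative values, 42 moved less than the limits set for them, 22 moved and 4 changed sign. Stricter lists, requiring a −log10 q or a fold of at least 5, held all 5 peaks. These limits were mild, since the lower quartile over all 229 peaks was 4.97 for −log10 q and 5.89 for fold. Most peaks of the list therefore also passed. The median rank of the 5 peaks by fold was 11 of 229, and became 53 by −log10 q and 62 by pileup. It was 10 without the peaks of very high pileup and 13 without the added 1. The median distance from summit to start was 20 bp, and became 140 bp with RefSeq gene starts and 168 bp without the transcript Eef1a1-208. The signed distance turned from -5 to 140 bp at Upf1 and from 3419 to -3391 bp at Ctu1 with RefSeq gene starts, where a Siglece start is the nearest to the Ctu1 summit. It turned from -20 to 863 bp at Eef1a1 with RefSeq gene starts and without Eef1a1-208. The number of windows with an NRF1 word rose from 1 to 3 with GCGCANGCG. No paired analysis was possible because there was a single ChIP and a single input library, and no replicate could be left out. Counts of 10 to 23 ChIP tags limit every value here.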

Other observations

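The 2 deposited tables listed the same 229 peaks at the same positions but did not name the same genes. The table with damaged values named Txnl4a and Eef1a1 for their peaks, left the gene empty for the peaks at Upf1 and Ctu1, and carried the Italian word for nothing at the peak between Safb and Safb2.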
